A study of Mus musculus with 2 samples.

Results

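The cells described here are macrophages of day 5 mouse skin wounds that carried RNA of both *Cbr2* and *Folr2*, 2 genes known from macrophages that live in unwounded tissue. They were chosen from single-cell RNA counts by a rule on measured values. Of 23089 deposited cell barcodes, 15514 had at least 500 genes and at most 6% of their unique molecular identifiers (UMIs, each counting 1 captured RNA molecule) on mitochondrial genes. Of these, 6070 passed a macrophage gate, with at least 5 UMIs of *Lyz2*, at least 2 UMIs of *Fcgr1*, *Csf1r*, *Adgre1* and *Msr1* together, under 0.5% of UMIs on *Col1a1* and *Col3a1* and under 0.5% on *Krt5* and *Krt14*, and no UMI of *Ccr7*. Members were the gated cells with at least 1 UMI of *Cbr2*, at least 1 UMI of *Folr2* and few UMIs of 1 further gene. Gated cells within that last limit are called eligible below. The rule found 456 cells, 209 in the PBS library and 247 in the DTX library. Their levels of these 13 genes follow from the rule and are given as a description only.

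The study asked what macrophages bearing CD206, the product of *Mrc1*, do in skin repair, and depleted them with diphtheria toxin. Per the labels, both groups were C57BL/6 mice of genotype *Mrc1-DTR*, aged 7 to 9 weeks, in which *Mrc1* regulatory sequence drives the toxin receptor, so that any cell using that promoter is a target. The PBS group received the vehicle and the DTX group diphtheria toxin. The methods, in contrast, describe the controls as wild-type mice that were given the toxin, and the labels were followed. Live (7AAD-negative) cells of the wound bed and the skin around it, from 3 male mice per group, went into 1 deposited library per group, and no cell can be traced to its mouse. The replicates of the study were technical, so that no test between the groups was possible. All intervals below are exact 95% intervals, they cover counting error only, and none of the differences was tested against the spread between animals.

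Macrophages of the skin come from several sources. Long-lived resident cells of the dermis sit beside vessels and nerves, take up debris, iron and immune complexes, and typically carry the hemoglobin scavenger receptor CD163, the folate receptor FOLR2, the mannose receptor CD206 and, in a perivascular subset, LYVE1. Monocytes enter a wound from the blood with *Ly6c2*, *Plac8* and *Vcan*, and lose these transcripts as they turn into macrophages. *Cbr2* encodes carbonyl reductase 2, an enzyme that reduces carbonyl compounds, and *Folr2* encodes folate receptor beta.

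The promoters of the 2 defining genes and of the 2 genes that stood highest in the members by the rule for named genes, *Ccl8* and *Cd163*, are shown to give the sequence next to which these transcripts start. Each is the 250 bases before the RefSeq start of the gene in build GRCm38.p6, read 5′ to 3′ on the strand of the gene, with GAGGAA (a core of sites for the macrophage factor PU.1) or TGCTGA (a core of sites for MAF factors), or their reverse complements TTCCTC and TCAGCA, in capitals.
*Cbr2*, chr11:120732022-120732271, minus strand: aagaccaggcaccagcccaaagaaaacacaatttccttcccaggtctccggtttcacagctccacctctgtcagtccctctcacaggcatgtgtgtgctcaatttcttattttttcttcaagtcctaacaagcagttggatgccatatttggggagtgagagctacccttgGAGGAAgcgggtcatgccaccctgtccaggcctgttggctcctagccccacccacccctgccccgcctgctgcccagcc
*Folr2*, chr7:101857191-101857440, minus strand: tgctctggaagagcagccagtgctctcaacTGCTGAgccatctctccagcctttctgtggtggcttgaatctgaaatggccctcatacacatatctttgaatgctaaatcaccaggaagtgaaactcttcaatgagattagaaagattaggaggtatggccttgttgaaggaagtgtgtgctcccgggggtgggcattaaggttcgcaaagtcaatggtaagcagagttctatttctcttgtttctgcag
*Ccl8*, chr11:82114935-82115184, plus strand: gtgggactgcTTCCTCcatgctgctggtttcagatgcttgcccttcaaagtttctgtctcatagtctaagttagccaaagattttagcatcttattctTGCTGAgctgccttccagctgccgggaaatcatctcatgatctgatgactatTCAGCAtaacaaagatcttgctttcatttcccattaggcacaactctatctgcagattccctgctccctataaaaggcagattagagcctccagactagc
*Cd163*, chr6:124304401-124304650, plus strand: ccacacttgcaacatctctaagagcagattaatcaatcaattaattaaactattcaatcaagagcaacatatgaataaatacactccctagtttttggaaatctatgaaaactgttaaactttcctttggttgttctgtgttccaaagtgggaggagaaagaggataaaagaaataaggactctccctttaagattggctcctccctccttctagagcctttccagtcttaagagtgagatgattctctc
The PU.1 core stood at -79 in *Cbr2* and at -240 in *Ccl8*, and the MAF core at -220 in *Folr2* and at -152 and -100 in *Ccl8*, counted in bases before the start. In the window of *Cd163* neither run of letters was present. Of the 27025 promoters of the same length, 23.1% held the PU.1 core and 15.8% the MAF core. Of the 12 genes named below as highest in members, 10 had a promoter in the table, of which 4 held the first and 3 the second. These matches describe letters and are not binding sites.

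The targeted gene *Mrc1*, on chr2:14229392-14332057 (plus strand), had 960 UMIs in the members of the PBS library, which is 767 per 1000000 UMIs of these cells (CPM, 720 to 817), and 1635 UMIs or 909 CPM (866 to 954) in those of the DTX library. The log2 ratio of DTX over PBS was 0.24 (0.13 to 0.36), but 0.03 with membership set after thinning to 2000 UMIs, -0.07 after thinning to 1000 and -0.12 when cells over 2000 genes were left out, so that no direction is given. In the other macrophages the log2 ratio was -0.13, and outside the gate 1.89. The other eligible macrophages, which serve as the comparison below and are called the other macrophages, had 416 CPM in the PBS and 379 CPM in the DTX library. A UMI of *Mrc1* was found in 90.4% of PBS and 93.1% of DTX members, against 74.2% and 67.5% of the other macrophages. With every cell thinned to 2000 UMIs these shares were 74.1% and 73.4% of members against 49.5% and 42.5%. Lymphocyte-rule cells outside the gate, which should lack *Mrc1*, had 2.18 and 5.98 CPM.

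The PBS library held 12058 barcodes with 105511870 UMIs (median 7649 per barcode) and the DTX library 11031 with 81858751 (median 6502). The text of the study assigns the cell numbers of the libraries to the opposite groups. The labels were followed here, and every direction of DTX against PBS rests on them. The study also reports a larger share of immune cells and fewer fibroblasts in its depleted wounds. By the labels, gated macrophages were 18.7% of kept PBS and 62.8% of kept DTX cells, and fibroblast-rule cells 28.7% and 5.54%. The libraries shared 37 barcode sequences, 0 of which were members. Members were shallower than the other macrophages, with a median of 4948 against 5501.5 UMIs in PBS and 6705 against 7085 in DTX, and their summed UMIs were 1251065 and 1798155. They had a median of 1744 and 2138 genes and carried 11.9% and 9.73% of their UMIs on ribosomal protein genes. Doublet scoring called 5 of the PBS members (2.39%) and 9 of the DTX members (3.64%), and these were kept. The male-specific gene *Ddx3y* had 153 CPM in PBS and 117 CPM in DTX members, and *Xist* had no UMI in the members of either library.

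Members made up a larger part of the macrophages in the PBS than in the DTX library. They were 13.4% (11.8% to 15.2%) of 1554 gated PBS cells and 5.47% (4.82% to 6.17%) of 4516 gated DTX cells. The denominators differ, since the gate held 18.7% of the kept PBS cells and 62.8% of the kept DTX cells. Of all kept cells, the order was the opposite, with members at 2.51% (2.18% to 2.87%) in PBS and 3.44% (3.03% to 3.88%) in DTX. A loss of members and a gain of other cells cannot be told apart in such shares.

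Depth was controlled by thinning each cell to 2000 UMIs. Among eligible cells, *Cbr2* was seen in 29.0% of PBS and 19.7% of DTX cells with all UMIs, and in 18.6% and 10.5% after thinning. *Folr2* was seen in 23.9% and 9.89% with all UMIs, and in 14.3% and 4.46% after thinning. Both were seen together in 13.7% (11.97% to 15.5%) of PBS and 6.84% (6.04% to 7.72%) of DTX cells, and after thinning in 96 of 1473 PBS cells (6.52%, 5.31% to 7.90%) and 92 of 3589 DTX cells (2.56%, 2.07% to 3.13%), with 58 and 21 shallower cells left out. The 2 genes met in the same cell more often than the product of their shares gives, 1.97-fold in PBS and 3.52-fold in DTX with all UMIs, and 2.46-fold and 5.46-fold at equal depth. In a plot of these shares by library and depth, the PBS values lie above the DTX values at each depth, and the shares of both genes lie above their product.

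**Figure D1:**
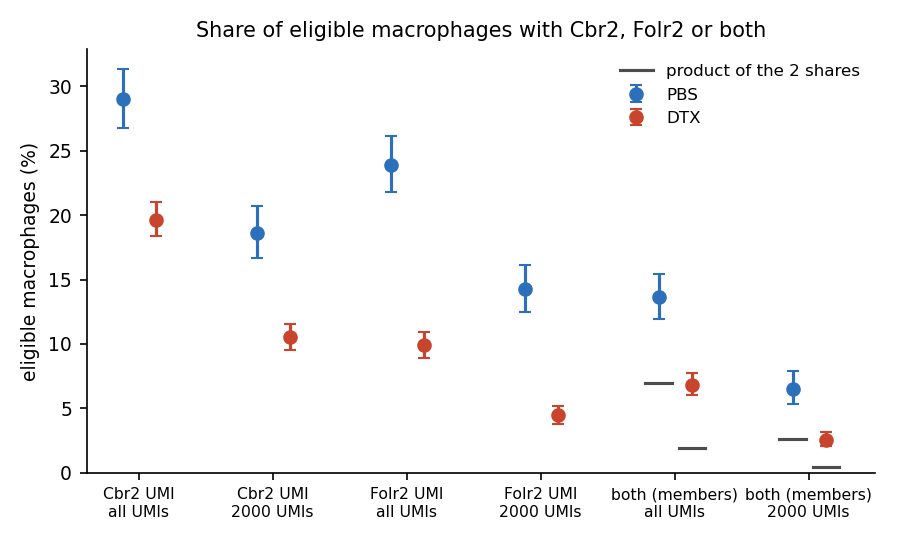
Percent of eligible macrophages with a UMI of *Cbr2*, of *Folr2* or of both, with all UMIs and after thinning to 2000 UMIs (x axis), in the PBS and DTX libraries. Points are shares, bars exact 95% intervals for counting error, and horizontal dashes the product of the 2 single shares; after thinning, both genes were seen in 6.52% of PBS and 2.56% of DTX cells.

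Free RNA can give UMIs to cells that do not express a gene. Lymphocyte-rule cells had to hold under 5 UMIs of *Lyz2*. That limit leaves out cells with much macrophage RNA, so that their shares may be low. In lymphocyte-rule cells, *Cbr2* was seen in 1.62% of 309 PBS cells and 1.21% of 165 DTX cells, at medians of 9070 and 8454 UMIs, and both genes in 0 cells, which allows up to 0.971% and 1.82% (here and below, the limit set by a count of 0 is 3 cells of the total, and it limits cells with a UMI, not cells that express the gene). In keratinocyte-rule cells of the PBS library, *Cbr2* was seen in 27.7% of 166 cells at a median of 14084 UMIs, but in 5.45% after thinning, and *Folr2* in 0 cells (allowing 1.81%). In fibroblast-rule cells both genes were seen in 0.335% of 2386 PBS and 1.01% of 398 DTX cells. In the 18 keratinocyte-rule cells of the DTX library, *Cbr2* was seen in 5 (27.8%) and both genes in 0, which allows up to 16.7%. With all UMIs, *Cbr2* by itself was thus no rarer in the deeper keratinocyte-rule cells than in eligible macrophages in DTX (27.8% against 19.7%), and close to them in PBS (27.7% against 29.0%). Both genes together were seen in a larger share of eligible macrophages than of lymphocyte-rule and fibroblast-rule cells in both libraries, and than of keratinocyte-rule cells in PBS, while 18 cells were too few to show this in DTX.

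The median member had 2 UMIs of *Cbr2* in PBS and 3 in DTX, and 2 UMIs of *Folr2* in both. Exactly 1 UMI of each gene was found in 33 PBS and 37 DTX members, and 2 or more of each in 100 and 106. Just outside the rule, 235 PBS and 463 DTX cells that were eligible had *Cbr2* without *Folr2*, 157 and 110 had *Folr2* without *Cbr2*, and 930 and 2790 had neither.

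The other markers given for these cells, *Ccl7*, *Selenop* and *Gas6*, are not in the rule. They were higher in members than in the other macrophages in both libraries. All 3 were named with earlier results of these data known, so that their levels are a description and not independent support. *Selenop* (chr15:3268547-3280508), a carrier of selenium, had 3117 CPM in PBS and 1682 CPM in DTX members against 1015 and 457 CPM in the other macrophages, 3.07-fold and 3.68-fold. *Gas6*, a ligand of the receptors that clear dying cells, had 180 and 103 CPM against 46.0 and 10.5 CPM, 3.91-fold and 9.75-fold. *Ccl7* (chr11:82045712-82047525), a chemokine for monocytes, had 2630 and 4116 CPM against 580 and 870 CPM, 4.54-fold and 4.73-fold. *Ccl7* and *Gas6* are not particular to macrophages, since fibroblast-rule cells had 572 and 534 CPM of *Gas6*, above the members in both libraries, and 3991 and 3027 CPM of *Ccl7*, above the members in PBS and below them in DTX. The summed fibroblast markers, some of them limited by the rule, were at 1508 CPM in PBS members against 1158 in the other macrophages and at 452 against 344 in DTX, and their part in the levels of *Ccl7* and *Gas6* was not tested. Without the gated cells in which any list of another cell type exceeded 1% of UMIs, a setting added after the data had been seen, the smaller of the log2 ratios of both libraries was 2.16 for *Ccl7*, 1.63 for *Selenop* and 2.25 for *Gas6*.

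Genes known from resident cells were found in very different shares of the members. *Selenop* was found in all 209 PBS and 245 of 247 DTX members, against 82.0% and 76.9% of the other macrophages, and *Mrc1* in the shares given above. *Cd163* was found in 25 of 209 PBS members (11.96%) and 22 of 247 DTX members (8.91%), against 1.82% and 0.565% of the other macrophages. *Lyve1*, which marks perivascular resident cells, was found in 3 PBS and 7 DTX members (1.44% and 2.83%), against 0 of 1322 and 0.238% of the other macrophages. *Timd4*, a phosphatidylserine receptor of long-lived resident cells, was found in 3 PBS and 0 DTX members (0 of 247 allows up to 1.21%), against 0.378% and 0.268%. *Cd209g* had no UMI in members of either library. *Ly6c2*, the monocyte gene, was found in 20.1% of PBS and 56.3% of DTX members, against 37.3% and 70.5% of the other macrophages. The cells are therefore called members here, and the term resident-like refers to the higher levels of *Cd163*, *Selenop*, *Gas6* and the resident list below.

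Levels were also compared over 6 classes of eligible cells by their UMIs of the 2 defining genes. In PBS, *Mrc1* stood at 360 CPM in cells with neither gene, 620 with *Cbr2* only, 483 with *Folr2* only, 534 with 1 UMI of each, 637 with 1 UMI of one and more of the other, and 918 CPM with 2 or more of each. In DTX the same 6 classes had 336, 612, 501, 649, 825 and 1064 CPM of *Mrc1*. *Ccl7* went from 343 CPM in cells with neither gene to 3077 CPM with 2 or more of each in PBS, and from 608 to 5287 CPM in DTX. *Vcan*, a proteoglycan made by monocytes, went the other way, from 86.8 to 17.01 CPM in PBS and from 323 to 65.0 CPM in DTX. For 14 of 17 genes computed, cells with only *Cbr2* and cells with only *Folr2* both lay between cells with neither gene and cells with 2 or more UMIs of each, in both libraries. The other 3 were *Ly6c2*, *Apoe* and *C1qa*. *Ly6c2* was at 424 and 1100 CPM in cells with only *Cbr2*, beside 416 and 916 CPM with neither gene. In PBS cells with only *Folr2*, *Apoe* was at 17394 CPM and *C1qa* at 3059 CPM, beside 16275 and 2949 CPM with 2 or more UMIs of each. A plot over the 6 classes shows 8 of the 14, with *Ccl8* at up to 5319 CPM in PBS and 2499 CPM in DTX. These classes are sampled from cells of different depth, and a cell with 1 gene seen may have held the other.

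**Figure D2:**
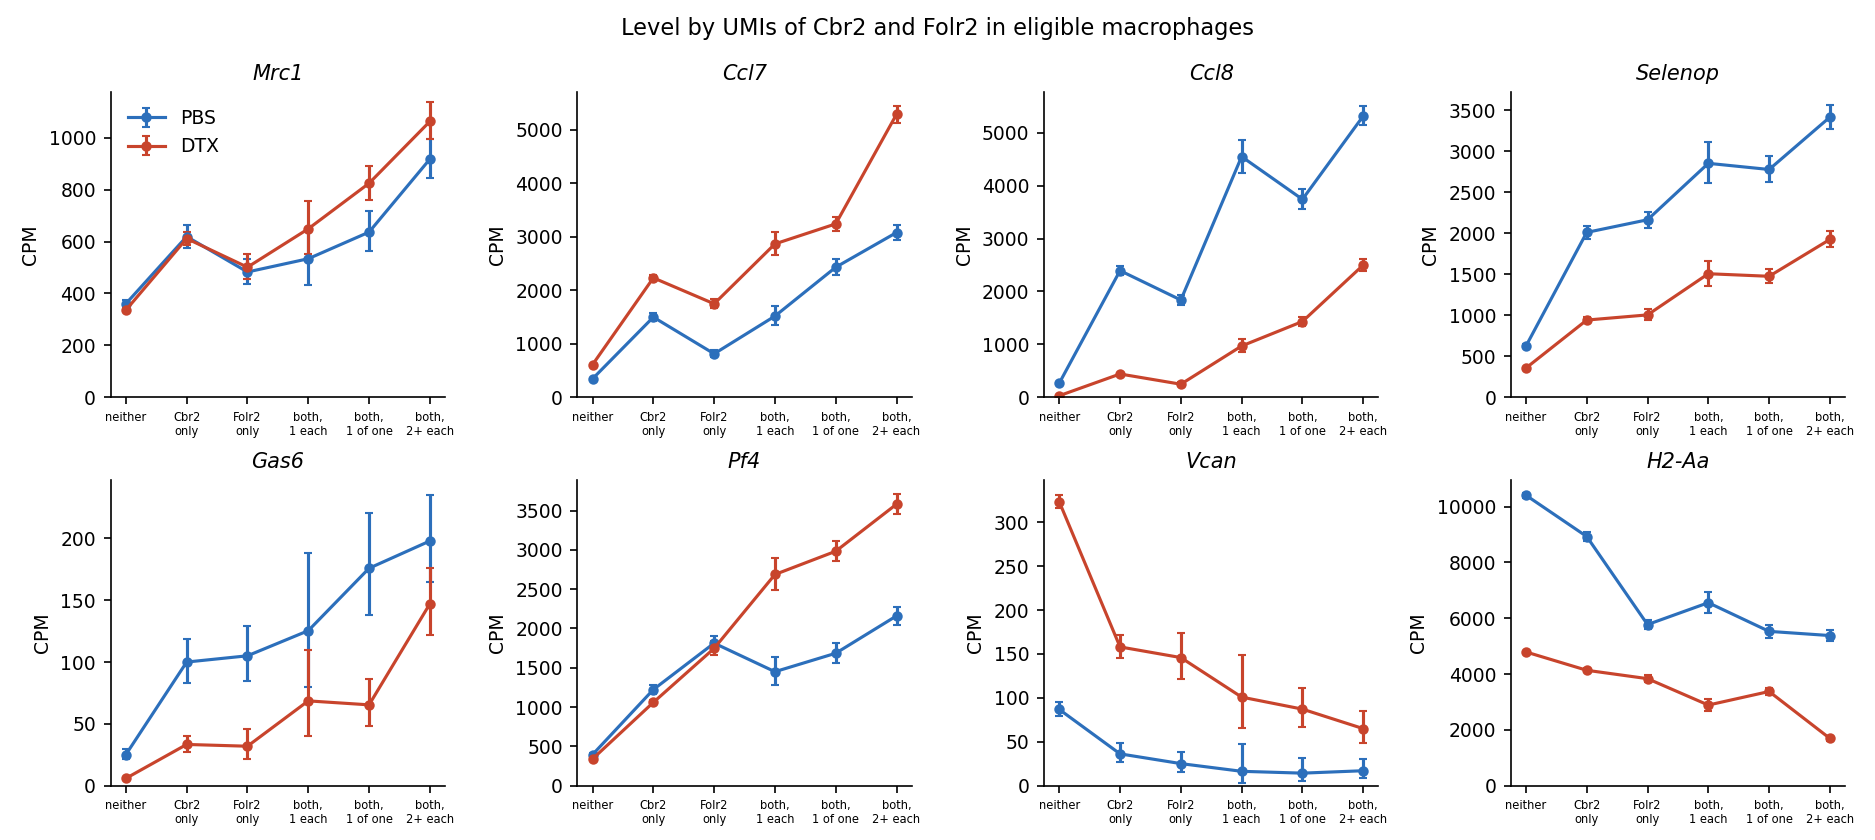
Summed level in CPM (y axis) of 8 genes in eligible macrophages grouped by their UMIs of *Cbr2* and *Folr2* (x axis), in the PBS and DTX libraries. Bars are exact 95% intervals for counting error; *Mrc1*, *Ccl7*, *Ccl8*, *Selenop*, *Gas6* and *Pf4* are highest with 2 or more UMIs of each gene, while *Vcan* and *H2-Aa* are highest in cells with neither.

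Across the transcriptome, 7906 genes outside the rule had at least 50 UMIs over members and other macrophages in each library. A gene was called when it was at least 2-fold higher, or lower, in members in both libraries, which 91 genes (1.15%) were upward and 78 genes (0.987%) downward. Another 33 genes were past 2-fold in opposite directions. In PBS alone 212 genes were past 2-fold upward and 275 downward, and in DTX alone 319 and 321. The 91 genes are 42.9% of the PBS and 28.5% of the DTX upward genes. The median log2 ratio over all genes was 0.01 in PBS and 0.03 in DTX.

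Ranked by the smaller of the ratios in the 2 libraries, *Ccl8* (chr11:82115185-82116799), a chemokine of resident macrophages, stood highest. It had 4676 CPM in PBS members against 780 CPM and 1852 CPM in DTX members against 91.1 CPM, 5.99-fold and 20.3-fold. Its UMIs lay in 149 of the 209 PBS and 92 of the 247 DTX members, and the 4 cells with most held 14.3% of them in PBS and 38.7% in DTX, where 563 of 3330 lay in 1 cell. *Cd163* followed with 29.6 and 23.9 CPM against 5.05 and 2.10 CPM, 5.85-fold and 11.4-fold, from 37 and 43 UMIs. *Cela1*, an elastase, had 34.4 and 29.5 CPM against 6.32 and 2.78 CPM. *Fcna*, a ficolin that binds microbial sugars, had 20.8 and 15.0 CPM against 4.93 and 1.59 CPM. *Serpinb6a*, an intracellular protease inhibitor, had 356 and 224 CPM against 89.7 and 27.8 CPM, 3.97-fold and 8.06-fold. *Scamp5*, a vesicle membrane protein, and *Npl*, an enzyme of sialic acid breakdown, were 3.94-fold and 3.91-fold higher in PBS and 6.06-fold and 6.58-fold higher in DTX. *Igfbp4*, a binding protein of insulin-like growth factors, had 98.3 and 44.5 CPM against 28.7 and 10.9 CPM. *Wwp1*, a ubiquitin ligase, was 3.42-fold and 4.93-fold, and *Tns1*, a focal adhesion protein, 3.35-fold and 4.19-fold higher. With *Ccl7* and *Gas6* these are the 12 genes with the largest ratio in the library where it was smaller. For each the interval of the log2 ratio lay above 0 in both libraries, which this choice by size made likely beforehand.

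Of the genes that stood lowest in members, several are known from monocytes and dendritic cells. *Hp*, encoding haptoglobin, had 11.99 CPM in PBS members against 60.3 CPM and 47.8 CPM in DTX members against 252 CPM, 0.199 and 0.190 times. *Ass1*, an enzyme of amino acid metabolism, had 14.4 and 30.03 CPM against 65.3 and 165 CPM. *Mcemp1*, a membrane protein of myeloid cells, had 9.59 and 26.1 CPM against 44.3 and 136 CPM. *Ly6i*, a relative of *Ly6c2*, had 3 and 12 UMIs in members against 176 and 1375, log2 ratios of -3.21 (-5.50 to -1.64) and -3.03 (-3.99 to -2.22). The chemokine *Ccl17*, with 6 and 2 UMIs, had log2 ratios of -3.24 (-4.69 to -2.10) and -2.85 (-5.90 to -0.98). *Treml4* (1 and 3 UMIs in members), *Dcstamp* (3 and 1) and *Gm9733* (4 and 5) complete the 8, and with so few UMIs their ratios have wide intervals, from -9.26 to -1.43 for *Treml4* in PBS. The smaller ratio fell under 2-fold for *Ccl17* when cells over 2000 genes were left out (-0.11) and after thinning to 2000 UMIs (-0.58). It did so for *Dcstamp* (-0.07) and *Treml4* (-0.76) after thinning to 2000 UMIs, for *Dcstamp* with 2 or more UMIs of both defining genes (-0.54) and for *Gm9733* after thinning to 1000 UMIs (-0.65). A plot of the ratio in DTX over that in PBS shows these genes at the corners of 1 cloud.

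**Figure D3:**
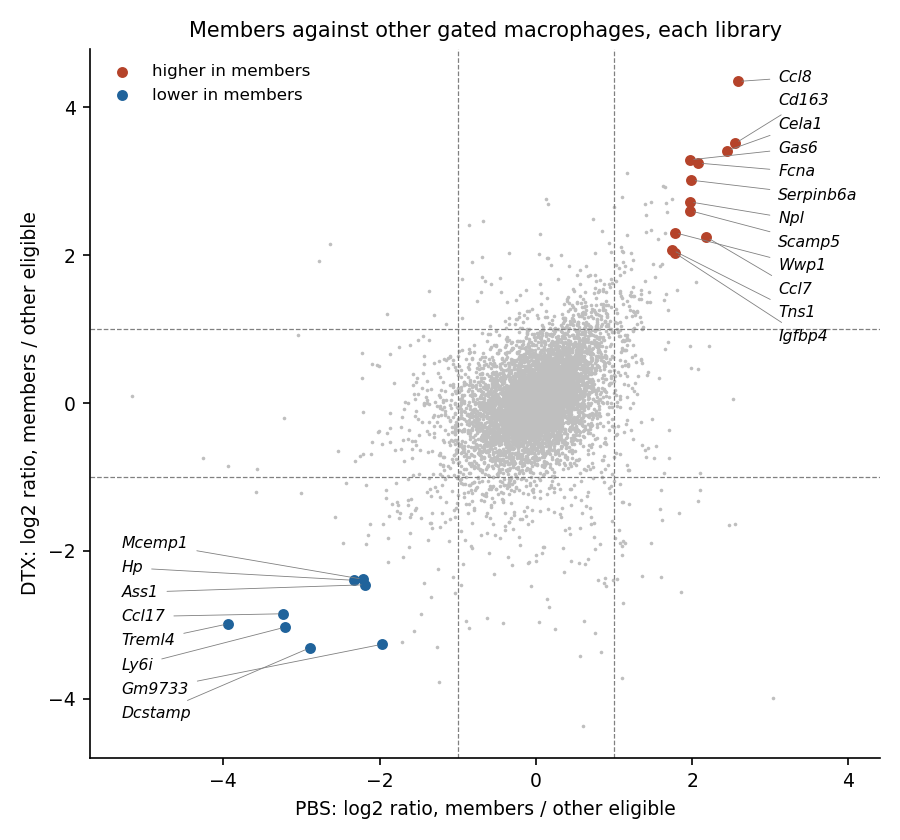
Log2 ratio of members over other eligible macrophages in the PBS (x axis) and DTX (y axis) libraries, 1 point per gene of 7906, with dashed lines at 2-fold. The 12 genes highest in members (red) and the 8 lowest (blue) are named; *Ccl8* lies at 2.58 and 4.35.

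Genes of resident macrophages were the list with the largest share of calls. Of 24 genes of this list outside the rule that could be compared, 13 were called higher, 1 lower (*Cd209d*) and 10 neither, with median log2 ratios of 1.41 in PBS and 1.65 in DTX. Besides those above, *Fcgrt*, which recycles antibodies, had 178 CPM in PBS members against 67.5 CPM and 218 CPM in DTX members against 33.9 CPM. *Pf4*, a chemokine of platelets and macrophages, had 1896 and 3213 CPM against 685 and 487 CPM, 2.77-fold and 6.60-fold. *Igf1*, a growth factor, had 290 and 74.0 CPM against 109 and 12.7 CPM. *Fcrls*, a receptor-like protein of resident macrophages, was 3.07-fold and 7.66-fold, and *Ltc4s*, the synthase of leukotriene C4, 3.14-fold and 4.93-fold higher. *F13a1*, a coagulation factor, was past 2-fold in PBS (438 against 135 CPM) and not in DTX (426 against 240 CPM, 1.78-fold). Summed over all 33 genes of the list, members had 15844 CPM in PBS and 12131 CPM in DTX, and the other macrophages 5558 and 3396 CPM. The list holds *Cbr2* and *Folr2*, and the markers *Selenop* and *Gas6* that named the cells, so that it is not independent of their choice. The study's own gene lists for its macrophage clusters come from these same libraries. One holds *Folr2* with *Ccl8*, *Gas6*, *Selenop*, *Igf1*, *Fcrls*, *Wwp1* and *Fxyd2*. Another holds *Cbr2* and *Folr2* with *Fcgrt*, *Siglec1* and *Ltc4s*. The calls of these genes are therefore a description and not independent support for the name. Without cells over 1% of another type, 13 of its genes were called higher and 1 lower, as with them.

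Of 19 chemokines compared, 6 were called higher, 1 lower and 12 neither. *Ccl2*, *Ccl7*, *Ccl8*, *Ccl12*, *Cxcl1* and *Pf4* were the 6 and *Cxcl14* the 1, with list medians of 0.59 and 0.58. Without cells over 1% of another type, 5 of 18 were called higher and 0 lower. *Ccl2*, the main ligand of CCR2, had 1426 CPM in PBS members against 442 CPM, and 2940 CPM in DTX members against 1225 CPM. Fibroblast-rule cells had 8294 and 7454 CPM of *Ccl2*, above the members in both libraries, and as for *Ccl7* the part of fibroblast RNA in these levels was not tested. *Ccl12*, a close relative, had 167 and 205 CPM against 74.4 and 42.7 CPM. *Cxcl1*, which attracts neutrophils, was 2.03-fold and 2.42-fold higher, but 53.7% and 55.8% of its UMIs lay in 4 member cells of each library. *Cxcl2* had 2467 and 3954 CPM in members against 2594 and 4766 CPM.

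Of 3 lists of genes for uptake, 5 genes were called higher, beside 1.15% of all genes, and *Tfrc* is the 1 of them that the resident list does not hold as well. Of 19 scavenger and lectin receptors, *Cd163*, *Stab1* (119 and 176 CPM against 42.2 and 48.0 CPM) and *Siglec1* (2.37-fold and 2.72-fold) were called higher, and *Cd209a* and *Cd209d* lower, with medians of 0.11 and 0.28. Of 16 efferocytosis genes, which bind and engulf dying cells, *Gas6* and *Stab1* were called higher and none lower, with medians of 0.53 and 0.84. *Axl*, a receptor for GAS6, had 58.4 and 28.4 CPM in members against 104 and 45.8 CPM. Of 12 iron and heme genes, *Cd163* and *Tfrc*, the transferrin receptor (2.36-fold and 3.80-fold), were called higher. *Hmox1*, which breaks down heme, had 5453 CPM in PBS members against 3299 CPM and 2263 CPM in DTX members against 2189 CPM. Of 13 complement genes, *C4b* was called higher and *Itgax* lower, and the C1q chain *C1qa* had 2884 and 2108 CPM against 1695 and 671 CPM, past 2-fold in DTX only (3.14-fold).

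Of 15 growth factors and related genes, *Igf1*, *Igfbp4* and the anti-inflammatory cytokine *Il10* (109 and 113 CPM against 39.2 and 22.3 CPM) were called higher. Of 29 transcription factors, *Bhlhe41* was the 1 called, from 29 and 18 UMIs in members. *Maf*, a factor of resident macrophages, was 2.28-fold higher in PBS and 1.80-fold in DTX. None of 22 lysosome and cathepsin genes and none of 16 lipid handling genes was called, with medians of 0.36 and 0.71 and of 0.06 and 0.68. Within these, the protease *Ctsb* had 5515 and 5141 CPM against 3045 and 1799 CPM, and the lipid carrier *Apoe* 17046 and 8768 CPM against 8923 and 4727 CPM.

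Of 18 genes of monocytes, none was called higher in members, 9 were called lower and 9 neither, beside 0.987% of all genes called lower, with medians of -1.62 and -1.36. *Ly6a*, a surface protein that monocytes share with other cells, was the 1 above 0 in both libraries (998 and 957 CPM against 661 and 627 CPM). *Vcan* had 16.0 CPM in PBS members against 71.9 CPM and 79.0 CPM in DTX members against 295 CPM. *Plac8* was at 0.342 and 0.367 times the level of the other macrophages, *Napsa* at 0.308 and 0.236, and *Chil3*, a chitinase-like protein, at 0.222 and 0.463 times. *Ly6c2* was past 2-fold in PBS (120 against 390 CPM) and not in DTX (660 against 930 CPM, 0.710 times). The thrombospondin *Thbs1*, the most abundant gene of this list in members, had 2476 and 3679 CPM against 2766 and 4914 CPM.

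Of 11 genes of MHC class II and its co-stimulators, which serve antigen presentation, *H2-DMb2* was the 1 called lower in members, from 8 and 5 UMIs. *H2-Ab1* (0.524 and 0.470 times) and *H2-DMb1* (0.527 and 0.416 times) were past 2-fold in DTX and not in PBS. In all, 10 lay below 0 in both libraries, with medians of -0.83 and -0.88, while *Cd40* lay below 0 in PBS and above it in DTX. *H2-Eb1* was also called lower without cells over 1% of another type. *H2-Aa* had 5602 CPM in PBS members against 9658 CPM and 2544 CPM in DTX members against 4669 CPM, and *Cd74* was at 0.568 and 0.567 times.

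The remaining lists had 0 to 2 calls each. Of 20 inflammatory genes none was called, with medians of 0.13 and 0.06, and *Il1b* had 1098 and 1581 CPM in members against 2196 and 3750 CPM. Of 16 genes of glycolysis and related metabolism *Slc16a3*, a lactate transporter, was called lower (0.426 and 0.413 times). None of 18 interferon-induced genes and none of 20 early response and stress genes was called, with medians of -0.05 and 0.31 and of 0.32 and 0.28. Of 13 genes of type 2 activation *Chil3* and *Ccl17* (a call that did not hold under 2 alternatives, above) were called lower, with medians of -0.31 and -0.16. Of 12 cell cycle genes *Top2a* and *Ube2c* were called lower, from at most 8 UMIs in members, and a UMI of *Mki67* or *Top2a* was found in 5.74% of PBS and 6.48% of DTX members against 6.96% and 5.65% of the other macrophages. Without cells over 1% of another type, the inflammatory gene *Il1a* and the interferon-induced gene *Ifit2* were called higher, and of the lipid handling genes above *Cd9* was called lower.

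Markers of other cell types were counted beside these results. None of 10 fibroblast, 12 keratinocyte, 5 neutrophil, 4 Langerhans cell, 3 endothelial and 2 mural genes was called in both libraries. When cells over 1% of another type were left out, *Il1r2*, 1 of 4 neutrophil genes, and *Rgs5*, 1 of 2 mural genes, were called lower. These same lists chose the cells left out, so that the 2 calls are not independent of the setting. Of mast cells, red cells and platelets, and Schwann cells and melanocytes no gene had enough UMIs. Of 4 lymphocyte genes *Gzma* and *Klrd1*, and of 5 dendritic cell genes *Cd209a* and *Ccl17*, were called lower. Summed keratinocyte markers were at 3921 CPM in PBS members, led by *Lgals7*, against 2507 CPM in the other macrophages, and at 310 CPM, led by *Dmkn*, against 847 CPM in DTX. Summed neutrophil markers were at 250 CPM, led by *Il1r2*, against 400 CPM in PBS, and at 996 CPM, led by *S100a9*, against 1127 CPM in DTX, with *Camp* and *Ngp* at 0 in the members of both. Summed lymphocyte markers were at 66.3 and 8.90 CPM in members, dendritic cell markers at 46.4 and 12.2 CPM, Langerhans cell markers at 356 and 260 CPM, mast cell markers at 14.4 and 11.1 CPM, endothelial markers at 15.2 and 66.2 CPM, mural markers at 14.4 and 221 CPM, and red cell and platelet markers at 7.99 and 1.11 CPM. Schwann cell and melanocyte markers had 7 UMIs in PBS members and 0 in DTX members. A list of another type exceeded 1% of UMIs in 9 PBS members (4.31%), 4 of them for fibroblasts and 4 for keratinocytes, and in 8 DTX members (3.24%), 5 of them for neutrophils, against 3.63% and 2.85% of the other macrophages.

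Members varied widely among themselves. The summed MHC class II genes had a median of 20699 CPM per PBS member, with 10% of members under 547 CPM and 10% over 52739 CPM, and a median of 3859 CPM per DTX member, with the same limits at 483 and 34490 CPM. The middle of the PBS members was thus above that of the DTX members, while the ranges overlapped. *Selenop* was found in 209 of 209 PBS and 245 of 247 DTX members, with medians of 2827 and 1532 CPM and outer limits of 876 to 7051 and 529 to 3493 CPM. *Ccl7* was absent from 32 PBS and 27 DTX members, with medians of 1432 and 2636 CPM and 10% of members over 7563 and 11524 CPM. The C1q chains had medians of 7598 and 5094 CPM, and 6 PBS but 39 DTX members had no UMI of them. At least 1% of UMIs lay on the C1q chains in 31.6% of PBS and 20.2% of DTX members, against 16.9% and 4.22% of the other macrophages.

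C1q-high gated cells (214 in PBS, 127 in DTX), which were chosen by their C1q UMIs among eligible cells that were neither members nor monocyte-like, had 464 and 516 CPM of *Mrc1*, 754 and 894 CPM of *Ccl7* and 1824 and 966 CPM of *Selenop*, all below the members. Their *Cd163* was at 8.04 CPM in PBS, below the members, and at 25.2 CPM in DTX, beside 23.9 CPM in members. Their *H2-Aa* was at 9789 and 7147 CPM, above the members. Monocyte-like cells (150 and 1450), chosen by *Ly6c2* and *Vcan* among eligible cells that were not members, had 343 and 334 CPM of *Mrc1*, 270 and 754 CPM of *Ccl7*, 404 and 323 CPM of *Selenop* and 5.91 and 0.861 CPM of *Cd163*. These groups are set side by side without a test. Each was cut by UMIs of its own genes, and neither holds cells with both *Cbr2* and *Folr2*.

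Within the members, 5419 genes had at least 50 UMIs over both libraries, of which 119 (2.2%) were at least 2-fold higher in DTX and 155 (2.86%) at least 2-fold lower, around a median log2 ratio of 0.11. Of the 119, 37 were also 2-fold higher in the other macrophages, 59 also outside the gate and 52 in neither. Of the 155, 98 were also 2-fold lower in the other macrophages, 57 outside the gate and 49 in neither. Without cells over 1% of another type, 104 of 5128 genes were higher and 88 lower in DTX members. The 2 libraries are also 2 captures, which cannot be told apart from the treatment.

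Of 23 resident genes 1 was called higher in DTX members (*Txnip*), 5 lower and 17 neither, with a median of -0.31, against -0.99 in the other macrophages. *Ccl8* was 2.53-fold lower in DTX members (4676 against 1852 CPM), and its log2 ratio was -1.34 (-1.40 to -1.27) in members and -3.10 in the other macrophages. *Igf1* was 3.92-fold lower (290 against 74.0 CPM), and *Selenop* 1.85-fold lower (3117 against 1682 CPM). Once cells over 1% of another type were left out, *Igf1* had log2 ratios of -2.05 in members and -3.26 in the other macrophages. *Mgl2* and *Clec10a*, lectins of type 2 activation, were 2.52-fold and 2.08-fold lower. *Cd5l*, a secreted scavenger protein, had 87 UMIs in PBS and 15 in DTX members, 8.34-fold lower. Of 16 monocyte genes 8 were called higher, 0 lower and 8 neither, with a median of 1.14 in members and 0.95 in the other macrophages. *Ly6c2* was 5.51-fold (120 against 660 CPM) and *Vcan* 4.94-fold (16.0 against 79.0 CPM) higher in DTX members. *Chil3* was 16.2-fold higher, from 47 UMIs in 17 PBS members to 1095 UMIs in 153 DTX members, but 21 of the 47 lay in 1 PBS member and 31 in 4. Its log2 ratio was 4.02, and 4.83 without cells over 1% of another type, with 3.90 to 5.37 over all alternatives. The order between members and other macrophages was the same in both libraries for *Ccl8*, *Igf1*, *Vcan* and *Chil3*. This follows from their calls above, which required it.

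Of 18 chemokines 5 were called higher and 3 lower in DTX members, with a median of 0.68. *Ccl2* was 2.06-fold (1426 against 2940 CPM) and *Ccl6* 2.40-fold higher, and *Ccl7* 1.57-fold (2630 against 4116 CPM), with *Pf4* at 1.69-fold. *Ccl5* and *Cxcl12* were called lower with *Ccl8*, but *Ccl8* alone without cells over 1% of another type. *Cxcl3* had a log2 ratio of 1.56 in members, smaller than that of 2.56 in the other macrophages. Of 20 inflammatory genes 5 were called higher (*Il1a*, *Il6*, *Cxcl3*, *Acod1* and *Clec4e*) and 0 lower, with a median of 0.53, but 51.0% of the *Il6* UMIs of DTX members lay in 1 cell. Of 9 MHC class II genes 3 were called lower (*H2-Eb1*, *H2-Ab1* and *H2-Aa*), with a median of -0.95 in members and in the other macrophages. *H2-Aa* was 2.20-fold lower (5602 against 2544 CPM). Of 14 growth factor genes *Pdgfb* was called higher and *Igf1*, *Areg* and *Igfbp4* lower, with a median of -0.10. Of 12 iron and heme genes *Hmox1* (2.41-fold) and *Hpgds* (2.36-fold), and of 12 complement genes *C3*, *C4b* and *Serping1*, were called lower. Without cells over 1% of another type, the calls of *C3*, *Serping1*, *Pdgfb*, *Il6* and the monocyte gene *Mcemp1* were lost.

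Of the other lists, 18 scavenger and lectin receptors had 1 call up (*Clec4e*) and 4 down with a median of 0.10, 16 efferocytosis genes 1 down (*Axl*) with a median of 0.02, and 14 genes of glycolysis and related metabolism 2 up (*Eno1*, *Slc16a3*) with a median of 0.15. Of 26 transcription factors *Hif1a*, the hypoxia factor, was called higher, with a median of 0.18. Of 22 lysosome genes *Atp6v0d2* and *Gpnmb*, and of 14 lipid genes *Lpl* (4.01-fold), were called lower. *Lpl* had log2 ratios of -2.10 in members and -3.53 in the other macrophages once cells over 1% of another type were left out. Of 16 interferon genes *Isg15*, *Usp18* and *Cxcl10* were called higher with a median of 0.44, and of 9 type 2 genes *Chil3* and *Tgm2* higher and *Retnla*, *Mgl2* and *Clec10a* lower. None of 4 cell cycle and none of 20 early response genes was called. Without cells over 1% of another type, the calls of *Hif1a*, *Eno1*, *Usp18* and *Tgm2* were lost, and *Saa3* and *Hspa1a* were called higher and *Egr1*, *Mef2c*, *Stmn1*, *Apoe* and *H2-DMb1* lower. Among markers of other types, all 12 keratinocyte genes and 4 of 7 fibroblast genes were called lower, 4 of 6 neutrophil genes and both mural genes (*Rgs5*, *Tagln*) higher, and 1 of 4 Langerhans cell genes (*Epcam*) lower. A plot of the list medians shows that the keratinocyte, neutrophil and mural medians moved towards 0 or, for the mural list, could no longer be computed, once cells with over 1% of another type were left out, with the keratinocyte median at -1.60 and the neutrophil median at 1.02, while the fibroblast median moved from -1.35 to -1.74. The same lists chose the cells left out, so that moves of their medians are not independent of the setting. Under the same setting the resident median was -0.29, the monocyte median 0.87, the chemokine median 0.70 and the MHC class II median -0.99.

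**Figure D4:**
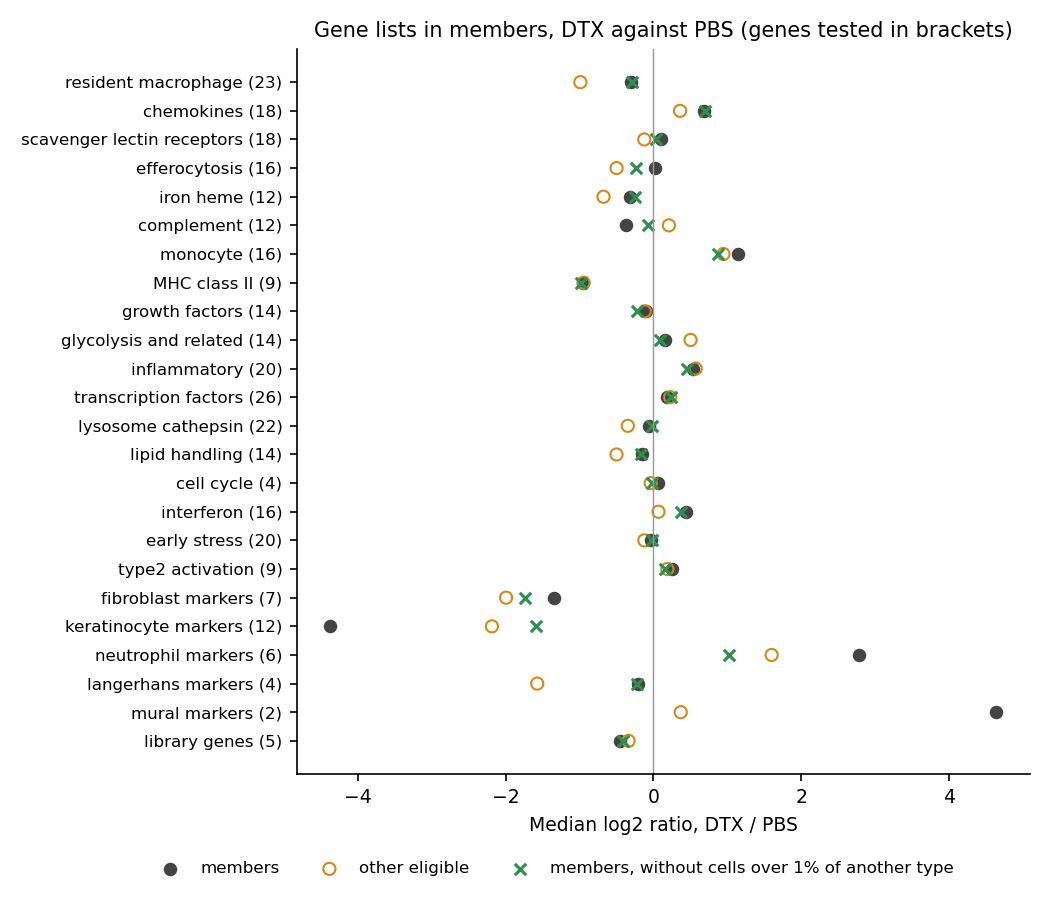
Median log2 ratio of DTX over PBS (x axis) for each gene list (y axis, genes tested in brackets), in members (filled), in the other eligible macrophages (open) and in members without cells that had over 1% of UMIs on markers of another type (crosses). The resident median is -0.31 in members and -0.99 in the other macrophages, and the monocyte median 1.14 and 0.95; the mural list has no cross because none of its genes could then be compared.

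Many of the largest single ratios between the libraries rested on few cells. By size alone, the 8 highest in DTX members were *Rgs5*, *Chil3*, *S100a9*, *Ppbp*, *Serpine2*, *S100a8*, *Gm13889* and *Col4a1*, and the 8 lowest *Coch*, *Mid1*, *2310046K23Rik*, *Krt77*, *Krt10*, *Krt1*, *Sprr1b* and *Gm47283*. *Rgs5*, a gene of pericytes, had 231 UMIs in 5 DTX members, 144 of them in 1 cell, and *Coch* had 124 of 126 UMIs in 1 PBS member. The keratin *Krt10* had 92.5% of its 508 PBS UMIs in 4 cells, and *S100a9*, a gene of neutrophils, 64.6% of its 845 DTX UMIs. *Chil3* had 12.9% of its UMIs in 4 cells and was the 1 gene of the upper 8 seen in most DTX members. A plot of the share held by 4 cells sets these against *Ccl7* (8.73% in DTX), *Ccl2* (10.7% in DTX), *Selenop* (7.18% in PBS) and *Igf1* (13.5% in PBS). Without the cells over 1% of another type, the 8 highest were *Chil3*, *Ppbp*, *S100a9*, *Ly6c2*, *Vcan*, *Cxcl10*, *S100a8* and *Cdc42ep2*, with log2 ratios of 4.83 to 2.00, and the 8 lowest *Mid1*, *Gm47283*, *Cd5l*, *Pgf*, *Cst6*, *Dcn*, *Lpl* and *Igf1*, with -6.73 to -2.05. Of the *Cxcl10* UMIs of these DTX members, 216 of 290 lay in 1 cell. In the other macrophages, the ratios of the 8 highest were, in the same order, 2.92, 1.40, 2.05, 1.21, 2.05, -0.23, 1.73 and 0.80. Those of the 8 lowest were there -6.39, -5.87, -2.65, -0.06, -2.32, -2.64, -3.53 and -3.26. Most of the lower 8 were thus also lower in the other macrophages, with *Pgf* near 0.

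**Figure D5:**
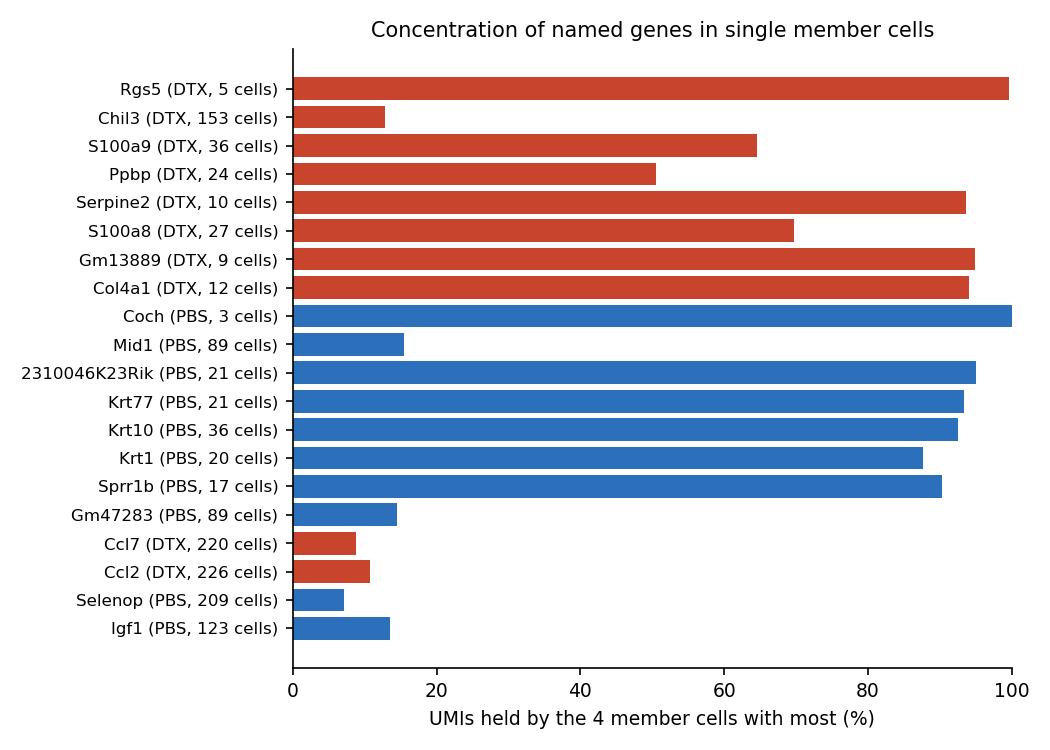
Percent of a gene's UMIs in members that lay in the 4 member cells with most of them (x axis), for the genes with the largest ratio between the libraries and 4 genes described above, each in the library where it was higher, with the number of member cells that had a UMI in brackets. *Coch*, *Rgs5* and the keratins lie above 85%, while *Chil3*, *Mid1*, *Gm47283*, *Ccl7*, *Ccl2*, *Selenop* and *Igf1* lie under 20%.

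*Mid1* and *Gm47283* were lower in DTX in members and in the cells around them. *Mid1* had 155 UMIs in PBS and 2 in DTX members, a log2 ratio of -6.80 (-9.86 to -4.92), against -6.34 in the other macrophages and -2.85 outside the gate. *Gm47283* had 159 and 5 UMIs, -5.51 (-7.16 to -4.26), against -5.93 and -5.40. *Slc15a2* had 0 UMIs in PBS members and 17 in DTX members, at least 3.94-fold higher against a floor of 3 counts, 0 and 301 in the other macrophages, and 19 and 280 outside the gate. The differences were thus also seen in the other macrophages and in the pooled cells outside the gate.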

How the data were processed

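Live wound cells were captured with 10x Genomics 3′ v3 chemistry. For 1 PBS and 1 DTX library the authors deposited raw counts, 1 value for each gene and barcode, made with Cell Ranger (6.1.1 in the processing notes, another release in the methods) against mm10. Members and gene lists were chosen with earlier results of these data known. Of the 13 genes of the rule, 1 is not reported here, nor are results that need it. The 2000-gene upper limit of the methods was an alternative, because over 50% of barcodes exceed it. Scrublet in scanpy 1.11.5 scored doublets. It called 382 PBS cells. In DTX its own threshold called 0, so the top 8% of scores (575) were marked. None were removed. UMIs were summed over cells, scaled to CPM over all genes, and compared as log2 ratios with exact conditional binomial intervals, with a count of 0 set to 3. Levels have exact Poisson and shares Clopper-Pearson intervals. Thinning drew 2000 UMIs per cell, with seed 1. Named genes were the rule genes, markers, *Mrc1*, the 12 highest and 8 lowest against other macrophages, the 8 highest and 8 lowest between libraries (100 UMIs or more), list genes called against other macrophages and the 2 most abundant of each of 30 lists. Any other gene was named after its values had been seen. Outside the gate, comparison cells had 2% of UMIs on *Krt5* and *Krt14* (keratinocyte rule), on *Col1a1* and *Col3a1* (fibroblast rule), or 3 UMIs of *Cd3d*, *Cd3e*, *Cd3g*, *Trbc2* and *Nkg7* with under 5 of *Lyz2* (lymphocyte rule). Among eligible non-members, monocyte-like cells had a UMI of *Ly6c2* and of *Vcan*, and C1q-high cells, of those left, 1% of UMIs on C1q chains. Promoters came from RefSeq (GRCm38.p6). Python 3.11.15, numpy 2.4.6, scipy 1.17.1, pandas 2.3.3, scikit-learn 1.9.0 and matplotlib 3.10.9 were used, and the sums were tested on simulated data.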

Additional observations from a re-analysis of the deposited data

Results flagged for a closer look

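Of the 33 genes past 2-fold in opposite directions in the libraries, 8 were among the genes named by rule. In these, members were past 2-fold above the other macrophages in one library and past 2-fold below them in the other; the difference between the libraries was not tested. The keratinocyte genes had log2 ratios of 2.55 in PBS and -1.63 in DTX for *Krt10*, 2.10 and -1.17 for *Krt77*, 1.60 and -2.35 for *Krt1*, 2.08 and -1.32 for *Sprr1b* and 1.61 and -1.18 for *2310046K23Rik*. *Coch* had 3.04 and -3.99, *Rgs5* -2.63 and 2.15, and the T cell gene *Cd3g* 1.12 and -2.70, from 25 and 1 UMIs in members. In the library where each was higher, the 4 member cells with most held 87.6% or more of the UMIs of the keratinocyte genes, *Coch* and *Rgs5*.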

How the results depend on the processing

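The share of members among gated cells was higher in PBS than in DTX under each alternative run. With 2 or more UMIs of both genes it was 6.44% and 2.35%, with thinning to 2000 UMIs before the rule 6.15% and 2.05%, and to 1000 UMIs 2.51% and 0.886%. For counts of called genes, an upper limit of 2000 genes per cell gave 52 genes higher in members, and 64 higher and 69 lower in DTX members. Thinning to 2000 UMIs gave 214 genes lower in members, and 74 higher and 54 lower in DTX members. Thinning to 1000 gave 320 higher and 166 lower in members, and 59 and 32 between the libraries. A minimum of 200 UMIs gave 38 and 29, and 30 and 42. Without cells over 1% of another type, 88 genes were lower in DTX members. The cause of these moves was not tested, except that a higher minimum tests fewer genes. The ratio of *Mrc1* between DTX and PBS members, 0.24, changed sign with the upper limit of 2000 genes (-0.12) and with thinning to 1000 UMIs (-0.07). No other named ratio computed under the alternatives did. Without a value were 36 ratios of DTX against PBS and 6 of members against others. They had too few UMIs, or the floor for a count of 0 gave their sign, so that a change there could not be seen. For named genes, 43 of 324 values of members against others and 57 of 204 of DTX against PBS moved beyond their counting interval. With 1 library per condition no replicate could be left out. No paired analysis was possible because the result comes from 1 library per group and no test.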
